A study of Mus musculus with 8 samples.

Results

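Integrins and the proteins that join them to actin were examined for WFS1 peaks in C2C12, an immortalized line of mouse myoblasts, here in the proliferating state. The set was a fixed list of 43 genes out of 21938 protein-coding genes of the nuclear chromosomes, and all 43 were found in the annotation. It held 13 integrin α subunits, 8 integrin β subunits and 22 adaptor genes of focal adhesions. The WFS1 ChIP-seq experiment comprises 8 libraries, of which the peak lists of 2 were used here, both from wildtype cells with an antibody against endogenous WFS1. Chromatin was crosslinked with DSG and formaldehyde and sheared for 30 cycles, and after immunoprecipitation a part of the sample received 6 further cycles, giving the list named after 36 cycles. The lists are therefore drawn from a shared immunoprecipitation, with 1 library per condition, and no test between them or against other genes was made.

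Integrins are heterodimers of an α and a β subunit that span the plasma membrane and bind the extracellular matrix outside the cell. Inside the cell, talins and kindlins bind the β tail, vinculin and α-actinins link it to actin filaments, and focal adhesion kinase, paxillin and p130Cas pass on the signal. In skeletal muscle, the laminin receptor of α7 and β1 holds the fibre to its basement membrane, and myoblasts use fibronectin and laminin receptors when they spread and migrate. WFS1 is a transmembrane protein of the endoplasmic reticulum, whose membrane continues into the nuclear envelope. The comparison asks where WFS1 peaks lie relative to the genes of cell adhesion.

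Peaks of both lists that overlapped were joined, giving 22292 combined peaks. The list after 30 cycles held 18283 peaks and that after 36 cycles 12674 peaks. The files give positions alone, so the depth behind each peak is unknown, and the lists cannot show whether the cells carried myoblast markers. A gene was counted in 3 ways. A peak was at the start site if its nearest edge was no more than 1 kb from the annotated start, in the gene if it overlapped it by at least 1 bp, and nearby if its edge was no more than 50 kb from that start. Positions refer to GRCm38, counted from 1. Long genes hold more peaks by their length alone, and the members, with a median length of 69.1 kb, were longer than protein-coding genes in general (17.4 kb). Each member was therefore set beside the 100 other protein-coding genes nearest to it in length.

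The sequences below are shown because they carry the sites found in peaks of these genes. Of the 11 genes described in full, 7 had a peak of both lists with such a site in its centre. For each of these, the widest peak with an AP-1 site (TGACTCA, or TGAGTCA on the other strand), the E-box CAGCTG or a CArG box, the site of serum response factor, was taken from those called in both lists, and the central 200 bp are printed on the forward strand of GRCm38 with the sites in capitals.
Ptk2, chr15:73434957-73435156: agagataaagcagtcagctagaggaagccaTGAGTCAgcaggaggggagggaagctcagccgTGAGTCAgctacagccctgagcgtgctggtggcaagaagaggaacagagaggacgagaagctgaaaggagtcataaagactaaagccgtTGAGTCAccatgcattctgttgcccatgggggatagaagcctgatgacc
Lpp, chr16:24498374-24498573: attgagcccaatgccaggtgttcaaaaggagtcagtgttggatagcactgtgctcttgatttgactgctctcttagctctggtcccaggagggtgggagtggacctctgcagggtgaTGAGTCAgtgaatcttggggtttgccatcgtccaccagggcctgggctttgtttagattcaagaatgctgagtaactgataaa
Actn1, chr12:80233927-80234126: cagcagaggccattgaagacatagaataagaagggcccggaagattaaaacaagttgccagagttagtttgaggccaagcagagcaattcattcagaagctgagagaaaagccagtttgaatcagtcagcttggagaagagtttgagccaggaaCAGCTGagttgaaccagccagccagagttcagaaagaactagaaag
Itga7, chr10:128922025-128922224: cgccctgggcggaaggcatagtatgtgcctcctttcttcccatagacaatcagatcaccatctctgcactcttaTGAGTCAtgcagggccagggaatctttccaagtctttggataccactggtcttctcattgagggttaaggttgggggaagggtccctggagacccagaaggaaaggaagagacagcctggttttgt
Itgb3, chr11:104624931-104625130: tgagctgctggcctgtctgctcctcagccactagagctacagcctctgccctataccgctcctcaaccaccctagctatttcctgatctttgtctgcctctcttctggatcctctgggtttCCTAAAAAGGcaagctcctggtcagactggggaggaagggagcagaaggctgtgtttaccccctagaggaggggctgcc
Itgb5, chr16:33889107-33889306: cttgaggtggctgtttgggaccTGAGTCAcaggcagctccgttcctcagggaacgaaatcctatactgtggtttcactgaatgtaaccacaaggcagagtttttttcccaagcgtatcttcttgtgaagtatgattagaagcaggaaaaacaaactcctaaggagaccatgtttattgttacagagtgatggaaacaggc
Tns3, chr11:8443762-8443961: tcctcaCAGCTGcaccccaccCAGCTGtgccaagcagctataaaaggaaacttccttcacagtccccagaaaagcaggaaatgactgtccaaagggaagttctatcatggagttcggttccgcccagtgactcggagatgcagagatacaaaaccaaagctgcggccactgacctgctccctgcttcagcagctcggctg
The window upstream of Ptk2 held 3 AP-1 sites, at 73434987, 73435019 and 73435108. Single AP-1 sites stood at 24498491 in an intron of Lpp, at 128922099 upstream of Itga7 and at 33889129 in an intron of Itgb5. The window in Tns3, which overlaps an exon, held 2 E-boxes, at 8443768 and 8443783, and that in an intron of Actn1 held 1, at 80234081. In an intron of Itgb3, a CArG box began at 104625052. A match of letters is a description of the reference sequence and no measurement of binding.

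Of the 43 members, 38 (88.4%, 95% Wilson interval 75.5 to 94.9) had a combined WFS1 peak no farther than 50 kb from the start, compared with 54.0% of all protein-coding genes and 56.3% of the length-matched genes. A peak inside the gene was found for 26 members (60.5%, 45.6 to 73.6), against 24.6% of all genes and 41.0% of the length-matched genes. At the start site, 14 members (32.6%, 20.5 to 47.5) had a peak, against 13.2% of all genes and 15.6% of the length-matched genes. In all 3 counts, the share of matched genes lay below the interval of the members, which covers counting error over genes only. The difference inside the gene was 35.9 percentage points against all other protein-coding genes and 19.5 against genes of like length.

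Peaks in the members or within 50 kb of their start sites numbered 216, none of them counted for more than 1 member. The members had a median of 4 such peaks and a mean of 5.02, where length-matched genes had a mean of 1.96 and all protein-coding genes a median of 1. More peaks than the mean of their matched genes were found for 30 members, and 17 had more than the 90th percentile of them. The share of other genes above the mean or percentile of their own matched genes was not computed. Matched counts were skewed, with a mean of 3.28 and a median of 1.5 for Ptk2, so most genes can lie below a mean. Itga2, Itga9, Fermt1 and Tgfb1i1 had no peak in either place, and 7 members had 1. At the other end, 7 members had 10 or more, led by Tns3 with 20 and Lpp with 18. Not every peak near a member is closest to it, and for 153 of the 216 peaks (70.8%, 64.4 to 76.5) the nearest protein-coding start site was that of a member.

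**Figure D1:**
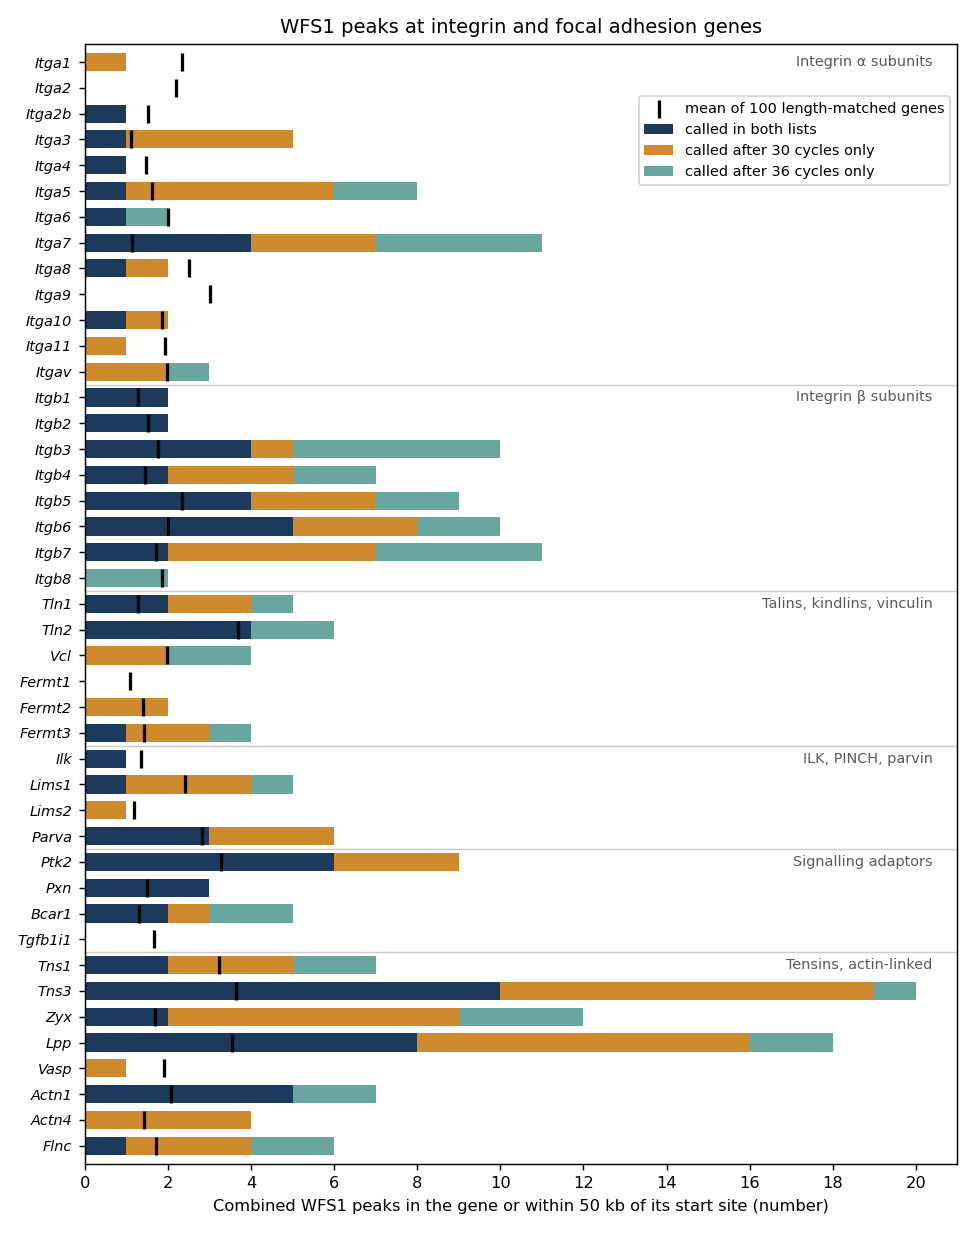
Number of combined WFS1 peaks in each of the 43 genes or within 50 kb of its start site, as bars divided by the list that called them, with a black mark for the mean of 100 length-matched genes. Tns3 (20) and Lpp (18) have the longest bars, and Itga2, Itga9, Fermt1 and Tgfb1i1 have none.

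Of these 216 peaks, 83 (38.4%, 32.2 to 45.1) stood in both lists. Another 87 (40.3%, 34.0 to 46.9) were limited to the list after 30 cycles, and 46 (21.3%, 16.4 to 27.2) to that after 36 cycles. Among all combined peaks of the nuclear chromosomes, the shares were 35.4%, 45.5% and 19.1%, in the same order, each within the interval of the members' peaks. Their median width was 398 bp, compared with 376 bp for all peaks. Relative to the gene they were counted for, 91 lay in introns, 20 overlapped annotated exons, 7 of them in UTRs, 84 lay upstream and 21 beyond the end of the gene. Within 50 kb, peaks were spread over the whole distance, with 18 in the first kb, 34 from 1 to 10 kb, 46 from 10 to 25 kb and 69 from 25 to 50 kb, and 84 of these 167 peaks lay upstream.

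The number of members with peaks varied by role. At start sites, 5 of 8 tensin and actin-linked genes (62.5%, 30.6 to 86.3) had a peak, against 14.5% of their length-matched genes, whereas 2 of 13 α subunits did (15.4%, 4.33 to 42.2), against 15.4%. The β subunits had 3 of 8 (matched genes 16.6%) and the ILK, PINCH and parvin genes 2 of 4 (13.5%). The signalling adaptors had 1 of 4 (matched genes 17.2%), and the talins, kindlins and vinculin had 1 of 6 (16.7%), level with their matched genes (16.3%). Inside the gene, 7 of 8 tensin and actin-linked genes and 6 of 13 α subunits had a peak, compared with 43.5% and 41.4% of their matched genes. Within 50 kb, all 8 β subunits and 11 of 13 α subunits had one, compared with 58.4% and 55.8% of their matched genes. The intervals of the roles overlapped, and no difference between roles was tested.

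**Figure D2:**
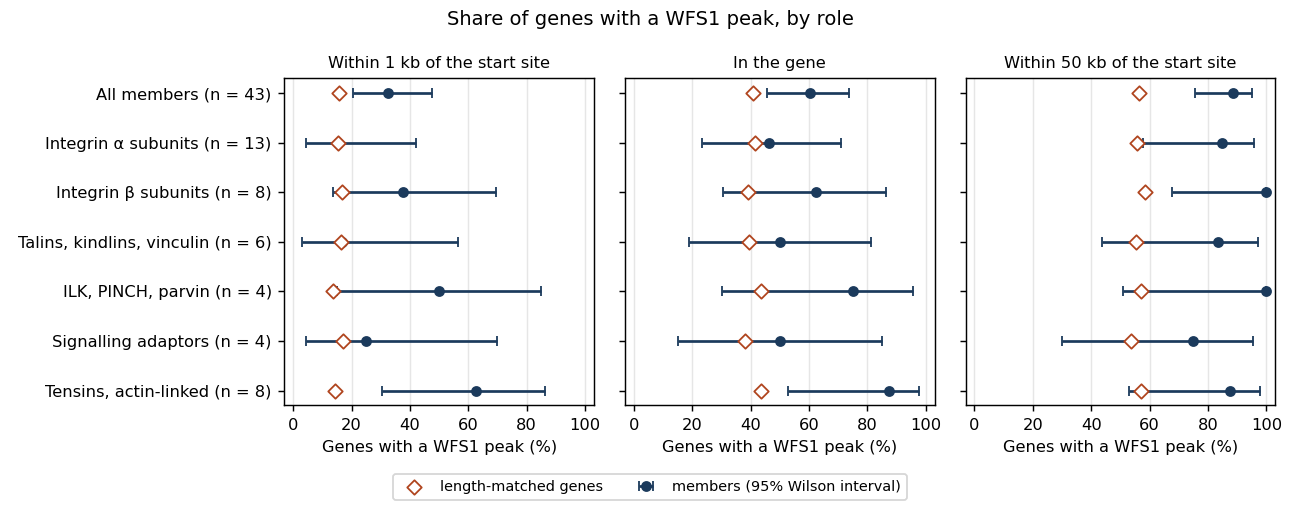
Share of genes with a WFS1 peak within 1 kb of the start site, in the gene and within 50 kb of the start site, for all members and by role. Filled circles with bars give the members with 95% Wilson intervals and open diamonds the length-matched genes. The tensin and actin-linked genes stand at 62.5% for start sites, where the α subunits stand at 15.4%, on their matched genes.

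Among the α subunits, Itga7, the partner of β1 in the laminin receptor of muscle, had the most peaks. All 11 lay upstream of the gene (ENSMUSG00000025348, forward strand of chromosome 10, 128933818 to 128958282) and none inside it or within 1 kb of its start. The nearest, at 128931252 to 128932351 (1100 bp), stood in both lists and ended 1.47 kb before the start site. A further 6 peaks lay 10.1 to 15.1 kb upstream in a stretch of 5.50 kb, of which 1 was called in both lists, 1 after 30 cycles only and 4 after 36 cycles only. Genes of like length had a mean of 1.14 peaks. For 10 of the 11 peaks the start site of another gene (Rdh5, Bloc1s1, Cd63 or Gdf11) was nearer than that of Itga7, and only the nearest peak was closest to Itga7 itself.

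Itga5, the α subunit of the main fibronectin receptor, had 8 peaks, 5 of them inside the gene. Its start site carried 2 peaks, both called after 36 cycles only, of which the one from 103366667 to 103367006 on chromosome 15 covered the start. The 3 intronic peaks, 5.81 to 7.88 kb downstream, were called after 30 cycles only, and the only peak of both lists lay 26.9 kb upstream of the gene. The start site of Itga5 thus had no call after 30 cycles. Itgav, the α subunit of vitronectin receptors, had 3 peaks, with the one at the start site (0.322 kb upstream) and another 9.34 kb upstream called after 30 cycles only, and an intronic one limited to the 36-cycle list.

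Itga3, a laminin receptor subunit, had 5 peaks, all 23.7 to 49.7 kb upstream and all nearest to the start site of Dlx3. Itga6, another laminin receptor subunit, had a peak of both lists 14.4 kb upstream and one called after 36 cycles only in an intron. Itga4, which pairs with β1 and β7, had 1 peak of both lists 27.3 kb upstream. Itga8 had 2, one of both lists 23.7 kb upstream and one 88.6 kb inside the gene. Itga10, a collagen receptor subunit, had 2 peaks outside the gene, and both were nearer to other genes. The remaining collagen receptor subunits had few, with 1 for Itga11 at 1.41 kb upstream, 1 for Itga1 in an intron, and 0 for Itga2. The intronic peak of Itga1 was nearer to the start site of Pelo. The platelet subunit Itga2b had 1 peak of both lists, over an exon 2.93 kb from the start and at the start of another annotated transcript. Itga9, at 294 kb the longest α gene, had none, where 60 of its 100 matched genes had a peak inside. In sum, 5 α subunits exceeded the mean of their matched genes and 8 did not. How many other genes exceed the mean of their own matched genes was not computed, so this count does not show α subunits poor in peaks.

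All 8 β subunits had more peaks than the mean of their matched genes, Itgb8 by the least, with 2 against 1.85. This count, too, has no background share. Itgb1, the subunit shared by most integrins of myoblasts, had no peak in the gene or at its start, and its 2 peaks lay upstream. They extended from 128654090 to 128654808 (719 bp, 30.8 kb from the start) and from 128666604 to 128667156 (553 bp, 18.5 kb) on chromosome 8. Both were called in both lists and had Itgb1 as the nearest protein-coding start site, and the farther one held an E-box.

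Itgb3, which pairs with αv and with the platelet subunit αIIb, had 10 peaks, and each of them lay inside the gene (ENSMUSG00000020689, forward strand of chromosome 11, 104608000 to 104670476), between 3.55 and 32.6 kb from the start. Peaks of both lists numbered 4, the widest from 104613472 to 104614729 (1258 bp), while the 30-cycle list alone gave 1 and the 36-cycle list alone 5. A stretch of 9.55 kb held 7 of the 10, including all 5 of the 36-cycle list alone. Its 100 matched genes had a mean of 1.77 peaks and at most 7. The start site itself was without a call.

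Itgb5, another partner of αv, had 9 peaks, of which 8 were inside the gene (ENSMUSG00000022817, forward strand of chromosome 16, 33829665 to 33949338). A peak called after 30 cycles only lay 0.507 kb from the start. The 4 peaks of both lists were 33.4, 57.0, 59.2 and 61.8 kb downstream, and the last of them, from 33891485 to 33892375, covered the start of another annotated transcript. AP-1 sites were present in the central 200 bp of 3 of the 9 peaks. For 3 of the 9, the start site of another gene was nearer than that of Itgb5. At this gene the calls of both lists thus lay far inside the gene and not at its 5′ end.

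Some β subunits are known mainly from other cell types, and these had peaks as well. Itgb6, an epithelial subunit, had 10 peaks, 9 of them inside the gene (ENSMUSG00000026971, reverse strand of chromosome 2, 60598292 to 60722643) and 5 of both lists. The widest, which spans 60699920 to 60701646 (1727 bp), lay 20.997 kb from the start, and none was within 1 kb of it. For 2 of the 10, the start site of Pla2r1 was nearer than that of Itgb6. Itgb7, a leukocyte subunit, had 11 peaks (ENSMUSG00000001281, reverse strand of chromosome 15, 102215995 to 102231944), of which 2 were at its start site. The one inside the gene, 102230529 to 102231610 (1082 bp), stood in both lists, and the other, 0.859 kb upstream, came from the 30-cycle list. Farther upstream, 5 peaks stood between 11.2 and 15.5 kb, of which 2 were nearer to Rarg. The last 4 were closest to Rarg or Gm9918, upstream, or to Zfp740, 28.6 kb from the start and beyond the end of the gene.

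Itgb4, the hemidesmosome subunit, had 7 peaks and none in the gene. Those upstream, 4 in a stretch of 3.39 kb at 16.6 to 19.6 kb, had Itgb4 as the nearest start, and the 3 downstream were nearer to H3f3b. Itgb2, the common subunit of leukocyte integrins, had 2 peaks of both lists, one in an intron 1.02 kb from the start and one 39.9 kb away beyond the gene, and each held an AP-1 site. Itgb8 had 2 peaks called after 36 cycles only, the nearer 33 bp upstream of the start site, so in the 30-cycle list it was without any. Among the 7 members of blood or epithelial cells (Itga2b, Itgb2, Itgb7, Fermt3, Itgb4, Itgb6 and Fermt1), 6 had a peak within 50 kb, compared with 32 of the 36 others, where their matched genes stood at 57.0% and 56.2%. At start sites the counts were 1 of 7 (14.3%, 2.57 to 51.3) and 13 of 36 (36.1%), with 15.7% and 15.6% of matched genes. The interval of the 7 held both their matched share and the share of the 36 others. Inside the gene the counts were 4 of 7 (57.1%) and 22 of 36 (61.1%), with 30.7% and 43.0% of matched genes.

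The talins, which bind the β tail, differed in where their peaks lay. Tln1 had 5 peaks, with 2 in the gene 2.07 and 2.94 kb from the start and 3 that lay 38.6 to 39.7 kb away, next to the start site of Tpm2. All 5 were nearer to the start site of another gene, the 2 in the gene to that of Creb3. Tln2 had 6, of which 4 were called in both lists, at 240 and 95.5 kb inside the gene and at 5.95 and 24.98 kb upstream. Neither gene had one at its annotated start. Vcl, the gene of vinculin, had 4 peaks, none in both lists, with 1 in an intron 9.06 kb from the start and the nearest upstream one at 4.85 kb. Of the kindlins, Fermt2 had a 30-cycle peak 0.134 kb upstream of its start and a second 38.9 kb upstream, Fermt1 of epithelia had none, and Fermt3 of blood cells had 4, all closer to other genes.

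Ilk, Lims1 and Lims2 (the PINCH proteins) and Parva encode the complex that couples integrins to actin through integrin-linked kinase. Lims1 (ENSMUSG00000019920, forward strand of chromosome 10, 58323466 to 58424691) had a wide peak next to its start site, from 58321705 to 58323174 (1470 bp), that ended 0.292 kb upstream and was called in both lists. Of its 4 others, 2 upstream lay at 2.22 and 11.97 kb, and 2 in introns, at 8.18 and 9.91 kb, each held an AP-1 site. Parva had 6 peaks, 5 of them in the gene. The one at the start site (0.066 kb) was called after 30 cycles only, and those of both lists were at 40.2 and 72.1 kb inside the gene and 26.8 kb upstream. Ilk, with 6.33 kb the shortest member, had a peak of both lists 41.1 kb downstream, nearest to Dchs1. Lims2 had 1 intronic peak called after 30 cycles only, nearest to Gpr17.

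Ptk2, the gene of focal adhesion kinase, had 9 peaks, of which 6 were called in both lists and none after 36 cycles only (ENSMUSG00000022607, reverse strand of chromosome 15, 73205102 to 73423280). One of them, from 73423254 to 73423989 (736 bp), covered the annotated start site. The peak upstream, from 73434604 to 73435510 (907 bp, 11.3 kb from the start), contains the printed window with 3 AP-1 sites. A group of 4 lay in the 3′ part of the gene, 174 to 180 kb from the start. With 1 start per gene, these had Ago2 as the nearest protein-coding start. The peak of this group from 73242974 to 73243485, called in both lists, covered the start of another annotated transcript of Ptk2. Matched genes had a mean of 3.28 and a median of 1.5 peaks, with up to 19 in a gene.

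Bcar1, the gene of p130Cas, had 5 peaks and the widest of all members' peaks. It extended from 111745766 to 111748570 on chromosome 8 (2805 bp), ended 1.96 kb upstream of the start site, was called in both lists and ranked 13 by width among the combined peaks. In the gene lay 2 more, 17.3 and 23.3 kb from the start. Pxn, the gene of paxillin, had 3 peaks, all of both lists and all 12.8 to 16.1 kb upstream, from 115489397 to 115493914 on chromosome 5, a stretch of 4.52 kb. They were 1205, 749 and 1127 bp wide, and the start site of Sirt4 was nearer than that of Pxn. Tgfb1i1, the gene of the paxillin relative Hic-5, had none, where 49 of 100 matched genes had a peak within 50 kb.

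Tns3, a tensin, had the most peaks of all members, 20, of which 10 were called in both lists, 9 after 30 cycles only and 1 after 36 cycles only (ENSMUSG00000020422, reverse strand of chromosome 11, 8431652 to 8664535). Inside the gene lay 11 and upstream 9. The upstream peaks began 10.3 kb from the start and reached 41.6 kb, with the widest from 8704585 to 8705885 (1301 bp). At the start site, the gene had 1 peak of 242 bp, called after 30 cycles only. At the far end of the gene, 4 peaks of both lists lay 212 to 225 kb from the start, among them the one with 2 E-boxes. All 20 had Tns3 as the nearest protein-coding start site. Its matched genes had a mean of 3.63 peaks, and the highest among them had 22.

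Tns1, another tensin, had 7 peaks, each inside the gene and at least 57.8 kb from its annotated start. A peak of both lists from 73998350 to 73999097 on chromosome 1 covered the start of another annotated transcript. With every annotated transcript start in place of 1 per gene, Tns1, Itga2b and Itgb2 were added, and 17 members (39.5%) had a peak at a start, compared with 21.3% of matched genes.

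Lpp, which encodes a zyxin relative of focal adhesions, had 18 peaks (ENSMUSG00000033306, forward strand of chromosome 16, 24393507 to 24992578). A peak of both lists, from 24392983 to 24393490 (508 bp), ended 0.017 kb before the start site. The other 17 were intronic, and 7 of them lay in a stretch of 8.20 kb that began 97.2 kb from the start, from 24490680 to 24498882, with 5 called in both lists. Matched genes had at most 4 in any 10 kb, although the highest of them reached the same total of 18. Beyond 115 kb, the gene of 599 kb held 4 further peaks.

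Zyx, the gene of zyxin, is short (10.6 kb) and had 12 peaks within 50 kb (ENSMUSG00000029860, forward strand of chromosome 6, 42349630 to 42360213). The start site was covered by a peak called after 30 cycles only (42349357 to 42349868), and another, from 42349975 to 42350570, was called in both lists. One more peak in the gene, 4.76 kb from the start, was called after 36 cycles only. Of the remaining 9, 1 lay upstream and 8 downstream, towards Epha1 and Tas2r143, and all 9 were closer to the start site of another gene. Genes of the same length had a mean of 0.230 peaks inside, against 3 in Zyx.

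The α-actinins, which crosslink actin filaments, also had peaks. Actn1 (ENSMUSG00000015143, reverse strand of chromosome 12, 80167547 to 80260371) had 2 peaks of both lists at its start site, one upstream from 80260414 to 80260849 (436 bp, ending 43 bp from it) and one inside from 80258816 to 80259967 (1152 bp, 0.404 kb from it). Further ones of both lists lay at 25.9 and 39.2 kb in introns and 47.5 kb upstream, and 2 others were called after 36 cycles only. It was the only member with 2 start-site peaks of both lists. Actn4 had 4 peaks, all called after 30 cycles only, with 3 in introns and 1 at 7.37 kb upstream. In the 36-cycle list it therefore had none.

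Flnc, the muscle filamin, had 6 peaks, of which 5 lay from 2.19 kb upstream to 6.06 kb downstream of the start site. They were called after 30 cycles only (3) or after 36 cycles only (2), and the peak of both lists, 44.2 kb upstream, was nearest to Opn1sw. E-boxes stood in the central part of 4 of the 6, the highest number of peaks with an E-box in any member. Vasp, which promotes actin filament growth, had 1 peak called after 30 cycles only, 44.8 kb upstream and nearest to Fosb.

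**Figure D3:**
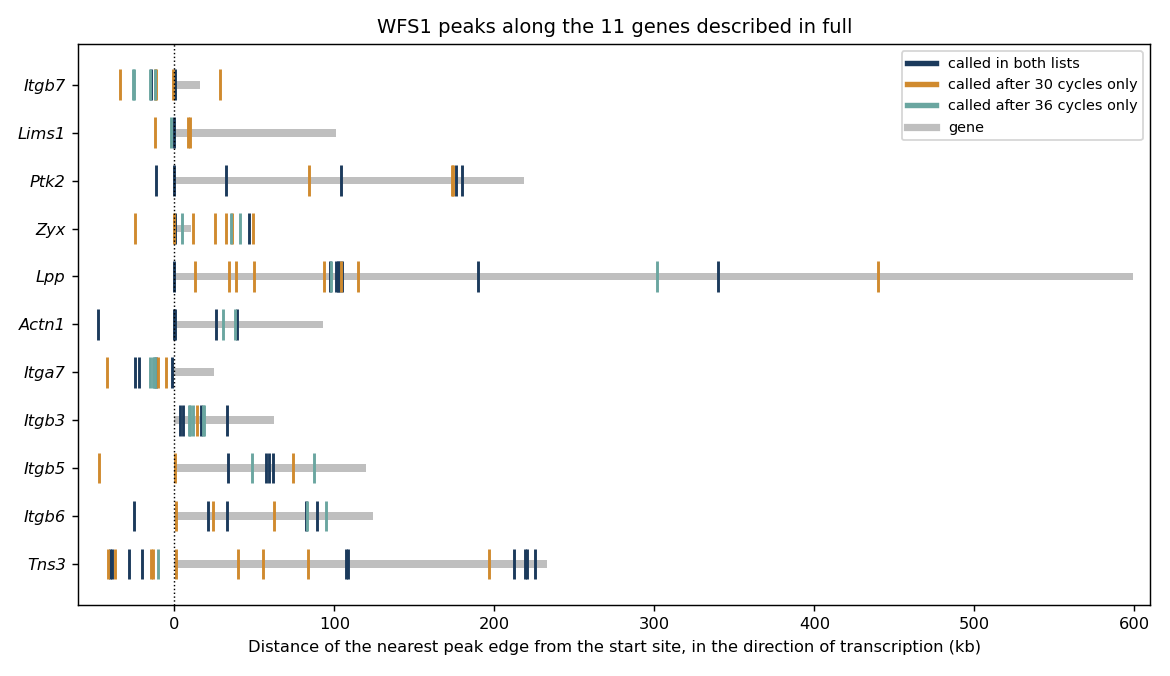
Position of every peak along the 11 genes described in full, as distance of the nearest peak edge from the start site in kb, in the direction of transcription. Vertical ticks are peaks coloured by list and grey bars are the genes. The peaks of Itga7 all lie upstream, those of Itgb3 all within the first 32.6 kb of the gene, and 7 of those of Lpp are stacked near 100 kb.

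At start sites, the 14 members had 18 peaks, of which 7 were called in both lists, 7 after 30 cycles only and 4 after 36 cycles only. The start-site peaks of both lists belonged to Itgb7, Lims1, Ptk2, Zyx, Lpp and Actn1. Of the 14 members, 11 had a CpG-rich start site, compared with 14 of the 29 without a start-site peak. Such a start was found for 58.1% of all members and 44.4% of all protein-coding genes. The share among other genes with a start-site peak is not given here, so these counts are no trait of the members. Start-site peaks of the members had a median GC content of 61.5%, all member peaks one of 49.5% and all combined peaks one of 47.1%.

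The sites printed above were counted in the central 200 bp of all 216 peaks, as were RUNX-type and TEAD-type sites, which the printed sequences do not mark. AP-1 sites were found in 34 (15.7%, 11.5 to 21.2), compared with 17.9% of all combined peaks, and RUNX-type sites (ACCACA or ACCGCA) in 60 (27.8%, 22.2 to 34.1), compared with 28.4%. GGAATG, a TEAD-type site, was present in 33 (15.3%, 11.1 to 20.7), against 15.6%. These shares were within the counting error of those of all peaks. CAGCTG, the E-box of myogenic factors, was present in 27 (12.5%, 8.73 to 17.6), against 17.97% of all peaks, which lay just above the interval. The whole peak in place of its centre gave 31.5% and 32.8%, so that gap was not seen there. With peaks of both lists only, the centre held CAGCTG in 12.05% of the members' peaks (6.68 to 20.78) and 20.74% of all. The gap was wider there, but the share of all peaks lay just inside the interval. AP-1 sites stood at 14.5% (8.47 to 23.6) and 20.8% in that set, also inside the interval. Among all combined peaks, those of integrin subunits held CAGCTG in the centre in 7 of 90 cases (7.78%, 3.82 to 15.2). The 17.97% of all peaks lay above that interval. Peaks of adaptor genes held it in 20 (15.9%, 10.5 to 23.2), an interval that includes 17.97%. The intervals of both gene groups overlap. The intervals treat peaks as independent, although peaks of the same gene share a locus.

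**Figure D4:**
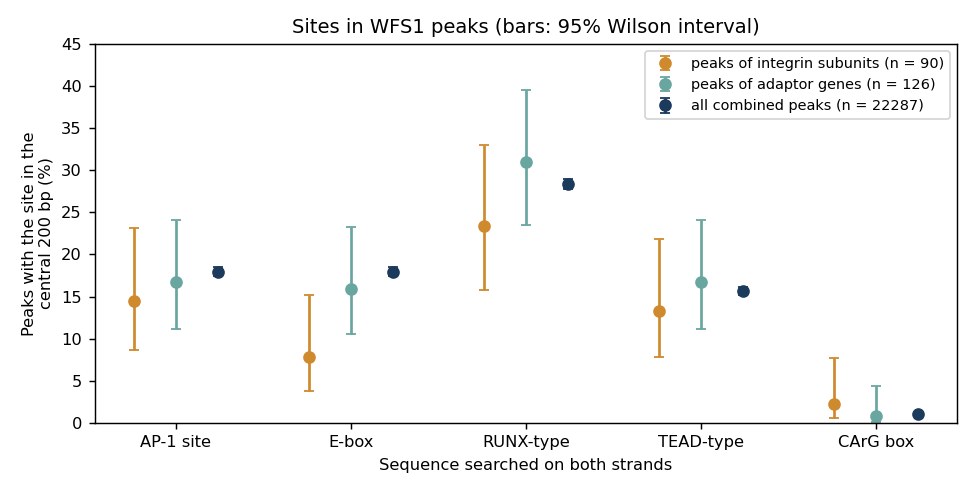
Percentage of WFS1 peaks with a site in the central 200 bp, for peaks of integrin subunits, peaks of adaptor genes and all combined peaks, with 95% Wilson intervals. E-boxes were found in 7.78% of the peaks of integrin subunits and 17.97% of all peaks, and the intervals of both gene groups overlap at each site.

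CArG boxes are known from the promoters of many actin-linked genes. Of the members' peaks, 3 held one in the central 200 bp (1.39%, 0.473 to 4.003), against 1.02% of all peaks, 2 of these in Itgb3 and 1 upstream of Vcl. In promoters of RefSeq on GRCm38.p6, from 250 bases before to 50 after a start, CArG boxes were present for 3 of the 32 members listed there (9.38%; Fermt2, Itgb6 and Vcl), and for 1.81% of 27025 genes. Among these 3, only Fermt2 had a WFS1 peak within 1 kb of its start site, where 32.6% of all members had one. That peak was called after 30 cycles only and held no CArG box in its centre. No interval was computed for the promoter shares, and the 27025 genes were not matched to the members.

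Other genes of the pathway were counted from lists written from knowledge of their function. Of 46 further adhesion genes, such as Src, Rhoa and Cav1, 15 (32.6%, 20.9 to 47.0) had a peak at the start site, 36 (78.3%) in the gene and 38 (82.6%) within 50 kb, against 15.4%, 37.7% and 54.7% of genes matched to them in length. Over all protein-coding genes these shares were 13.2%, 24.6% and 54.0%. Of 17 matrix ligands of integrins, 6 had a start-site peak, among them Fn1, Tnc and Lamb1, 13 had one in the gene and 12 within 50 kb, against 16.4%, 42.9% and 55.5% of their matched genes. The interval of the share within 50 kb (46.9 to 86.7) held the matched share. The 5 leukocyte integrin subunits outside the list, Itgal, Itgam, Itgax, Itgad and Itgae, had none at the start site and none in the gene. All 5 had a peak nearby, with 5 distinct peaks among them. Their matched genes stood at 15.8%, 34.6% and 55.6%, and an interval for 0 of 5 genes reaches 43.4%, so the absence of calls at and in these genes was within counting error of their background. The shares of the further adhesion genes lay within the intervals of the 43 members at start sites and within 50 kb, and above the interval inside the gene.

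The 3 members on chromosome 15 (Itga5, Itgb7 and Ptk2) each had a start-site peak. Without them, a choice made after the values were seen, 11 of 40 members (27.5%) had one, against 15.7% of matched genes, 57.5% had a peak in the gene, against 41.5%, and 87.5% had one within 50 kb, against 56.4%.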

How the data were processed

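WFS1 ChIP-seq peak lists of wildtype C2C12 myoblasts were used from 2 libraries, and the other 6 were not used here. By the study's methods, the authors aligned reads with NextGenMap against GRCm38, applied a mapping-quality filter in samtools and ran MACS2 on each library separately. The deposited lists hold peak positions in bp without a score, so neither depth nor a stricter threshold could be examined, and the control of the peak calling is not given in the sources used here.

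Lists were joined with a function that gave the same 22292 peaks as bedtools merge. Genes were taken from GENCODE mouse release 21, with the 5′ end of each gene as its only start site. For each member, the shares and means of the 100 other protein-coding genes nearest in length were averaged. The other pathway lists were matched in the same way, after their counts were seen. A CpG-rich start had a GC fraction of at least 0.5 and an observed to expected CpG ratio of at least 0.6 within 500 bp. Sites were searched on both strands. Shares carry 95% Wilson intervals, and no p-value was computed.

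The members and lists were chosen with earlier results of these data known. Every member is accounted for, and those described in full have a start-site peak of both lists or are among the 8 with most peaks, ties kept. The stretches of 10 kb, the widest peaks and the counts by CpG class were chosen after the values were seen. Counting and site search were tested on simulated data. Tables were handled with pandas 2.3.3 and numpy 2.4.6 under python 3.11.15, intervals came from scipy 1.17.1, sequences from samtools 1.23.1, merging was compared with bedtools 2.31.1, and plots were drawn with matplotlib 3.10.9.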

Additional observations from a re-analysis of the deposited data

How the results depend on the processing

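With the 36-cycle list alone, 9 members had a peak at the start site (20.9%, against 7.28% of length-matched genes). With peaks of both lists only, 6 had one (14.0%, against 3.84%) and 16 had a peak in the gene (37.2%, against 20.6%). In that set, the difference from matched genes fell from 17.0 to 10.1 percentage points at the start site, by more than 1.5 times. Inside the gene it fell from 19.5 to 16.7, while within 50 kb it rose from 32.05 to 39.3. The shares of members and of matched genes were both lower there, at start sites 14.0% and 3.84% in place of 32.6% and 15.6%. A fall in points thus does not show a smaller excess relative to matched genes. Within 50 kb, 29 members were counted in that set (67.4%, against 28.1% of matched genes), in place of 38. Counting a peak only for its nearest protein-coding start site also left 29. No share of matched genes was computed for that count, so it cannot show whether the difference remained. Against all other protein-coding genes, the difference inside the gene was 35.9 points, as length was then not matched. Searching the whole peak gave an AP-1 site in 33.3% of the members' peaks and 31.2% of all peaks, and CAGCTG in 31.5% and 32.8%. The other counts were within 1.5 times the main ones. No difference from matched or from all other protein-coding genes changed sign in the alternatives where one was computed. For AP-1 sites, the members' share lay below that of all peaks in the centre and above it in the whole peak. Leaving out the members on chromosome 15, and leaving out blood and epithelial members from the differences, were chosen after the data were seen. The lists used are parts of a shared immunoprecipitation, but with 1 library per condition and no scores a paired analysis was not possible. No comparison rests on a test. WFS1 libraries of knockout cells with tagged WFS1 were not analysed here. The peaks carry no depth, a missing call does not show that WFS1 was absent, and a peak within 50 kb need not act on the gene it was counted for.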
